A study of Rattus norvegicus with 32 samples.

Results

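The genes described here encode the proteins of the mitochondrial ribosome, the particle that translates the messages of the mitochondrial genome. They were taken as every array feature annotated to exactly 1 gene symbol that starts with Mrpl (large subunit) or Mrps (small subunit) followed by a digit, with the brightest feature kept for each gene. The rule gave 63 genes of 14557 with a symbol of their own, 40 in the large and 23 in the small subunit. It uses only names and brightness, but the family was chosen with earlier results of these data known. One of the 63, Mrps11-ps1, is annotated as a pseudogene, and its probes may also read Mrps11. Mrpl30 alone had 2 features. Mrps30 and Mrps18a carry small-subunit names, while later structures of the mammalian particle place both in the large subunit.

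RNA was measured in the red part of the tibialis anterior, a muscle of the lower hind leg, on 1 Affymetrix array per rat. All 32 rats were male Zucker rats, 18 weeks old after 12 weeks on their diets, in 4 groups of 8. Lean Zucker rats and obese Zucker rats, a strain whose obesity is inherited, ate the AIN-93G control diet without restriction (lean control and obese control). The other obese rats received AIN-93G with 10% flaxseed oil, a source of alpha-linolenic acid (obese ALA), or with 10% safflower oil, a source of linoleic acid (obese LA), in amounts matched to the calories eaten by the obese controls. The 2 oils were fed only to obese rats, so no lean rat on either oil enters a comparison. Values are log2 intensities, on which a difference of 1 is a doubling, and an array intensity ranks rats for 1 gene but not genes against each other.

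The mitochondrial genome encodes only a few proteins, all of them core subunits of the respiratory chain and ATP synthase, and the mitochondrial ribosome makes them. Every protein of this ribosome is encoded in the nucleus, made in the cytosol and imported, so the particle depends on the joint output of many nuclear genes and on ribosomal RNA from the mitochondrial genome. The small subunit reads the message and the large subunit joins the amino acids and releases the chain at the inner membrane. Red muscle is rich in mitochondria, and the transcription factors NRF1 and GABPA, which act on many nuclear genes for the respiratory chain, are known to act on genes of this family too.

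Promoters are shown for 4 genes because they hold the letters by which those factors are usually recognised. RefSeq promoter windows (assembly GRCr8, 250 bases before to 50 bases after the gene's start) were found for 50 of the 63 genes, as 51 windows. In the lines for Mrpl32 (chr17:55260401-55260700, + strand) and Mrpl44 (chr9:88554800-88555099, + strand), capitals mark the full NRF1 palindrome, a run of 12 letters. In Mrps26 (chr3:138222074-138222373, + strand) they mark an ETS match, the letters CCGGAAGT read on the other strand, followed by a match to the NRF1 core (GCGC, any letter, then TGCGC), also on the other strand. In Mrpl3 (chr8:114548720-114549019, + strand) they mark CCGGAAGT on the strand shown.
Mrpl32: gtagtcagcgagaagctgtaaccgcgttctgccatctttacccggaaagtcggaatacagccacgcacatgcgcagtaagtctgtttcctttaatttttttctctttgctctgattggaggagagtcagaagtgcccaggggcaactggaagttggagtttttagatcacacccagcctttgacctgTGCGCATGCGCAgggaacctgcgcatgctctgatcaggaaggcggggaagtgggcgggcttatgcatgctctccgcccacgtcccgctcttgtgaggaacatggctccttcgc
Mrpl44: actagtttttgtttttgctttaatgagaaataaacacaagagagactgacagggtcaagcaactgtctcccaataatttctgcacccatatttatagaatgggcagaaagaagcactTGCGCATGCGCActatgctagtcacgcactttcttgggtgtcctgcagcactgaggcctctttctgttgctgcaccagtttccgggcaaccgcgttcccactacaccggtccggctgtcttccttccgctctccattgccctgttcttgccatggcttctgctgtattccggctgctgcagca
Mrps26: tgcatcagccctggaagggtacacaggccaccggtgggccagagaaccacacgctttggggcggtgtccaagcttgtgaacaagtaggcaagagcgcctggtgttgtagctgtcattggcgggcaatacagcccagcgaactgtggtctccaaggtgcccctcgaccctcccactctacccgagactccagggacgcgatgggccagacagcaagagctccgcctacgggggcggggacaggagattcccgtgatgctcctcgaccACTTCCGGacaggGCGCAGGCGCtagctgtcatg
Mrpl3: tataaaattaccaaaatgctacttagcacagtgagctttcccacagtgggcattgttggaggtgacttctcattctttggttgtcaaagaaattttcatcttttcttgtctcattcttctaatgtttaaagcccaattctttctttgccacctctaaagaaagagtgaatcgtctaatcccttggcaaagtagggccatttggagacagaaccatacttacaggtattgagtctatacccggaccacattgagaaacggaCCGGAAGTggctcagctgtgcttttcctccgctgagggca

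The NRF1 core, searched on both strands, was present in 8 of the 51 windows (15.7%), those of Mrpl14, Mrpl30, Mrpl32, Mrpl44, Mrpl45, Mrpl57, Mrps18b and Mrps26. It was present in 4.25% of all 33469 windows in the table, in 7.79% of the windows of genes tested here and in 20.6% of 63 windows of nuclear respiratory chain and ATP synthase genes. The full palindrome, which contains the core, was present in 2 windows (3.92%) against 0.179% of all windows. The ETS letters CCGGAAGT were present in 6 windows (11.8%), those of Mrpl3, Mrpl27, Mrpl48, Mrpl53, Mrps18c and Mrps26, against 3.81% of all windows and 7.04% of those of genes tested. These shares describe letters in a window and say nothing of binding in these muscles.

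General skeletal muscle genes were bright on the arrays. Acta1 (skeletal muscle actin), Ckm (muscle creatine kinase) and Mb (myoglobin) had mean log2 intensities of 12.61, 12.44 and 12.47. The fast fibre myosin Myh4 had a mean of 12.08. The slow fibre myosin Myh7 had a mean of 8.64 and ran from 5.86 to 11.05 between rats. Whether every sample held the red part alike cannot be told from these genes. Correlations between arrays lay between 0.966 and 0.992. Some arrays stood apart in markers of other cells or fibre states, given as the mean log2 intensity of each list. Obese control rats 4 and 7 were high in 5 genes of regenerating or denervated fibres (7.21 and 7.39, where no other rat of that group passed 5.54) and in 10 macrophage genes (6.09 and 6.31, against 5.33 to 5.69). Lean control rat 2 was also high in the regenerating or denervated fibre genes, at 7.01 against 5.36 to 5.54 in the other lean controls. Obese control rat 5 was high in the hepatocyte genes, at 10.81 against 4.38 to 5.20. Obese LA rats 7 and 8 were high in the tendon genes (8.30 and 6.93, against 4.36 to 5.87) and in the slow fibre genes (10.05 and 10.59, against 7.20 to 8.99), and rat 7 of that group also in the macrophage (6.49) and fibroblast (9.07) genes. In whole muscle, fewer cells of a type and less RNA per cell cannot be told apart.

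Across the groups the genes of both subunits lay close together. The mean over the 40 large-subunit genes was 7.48 ± 0.0588 in lean controls, 7.39 ± 0.0996 in obese controls, 7.47 ± 0.0924 in obese ALA and 7.43 ± 0.131 in obese LA (log2 intensity, SD over n = 8 rats). The mean over the 23 small-subunit genes was 7.07 ± 0.0436, 6.99 ± 0.0981, 7.05 ± 0.0829 and 7.02 ± 0.105 in the same order. Lean control was the highest and obese control the lowest of the 4 group means in both subunits, and the rats of the groups overlapped. The 4 group means spanned 0.0884 (1.06-fold) in the large and 0.0817 (1.06-fold) in the small subunit, while single rats spanned 0.484 (1.40-fold) and 0.393 (1.31-fold).

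**Figure D1:**
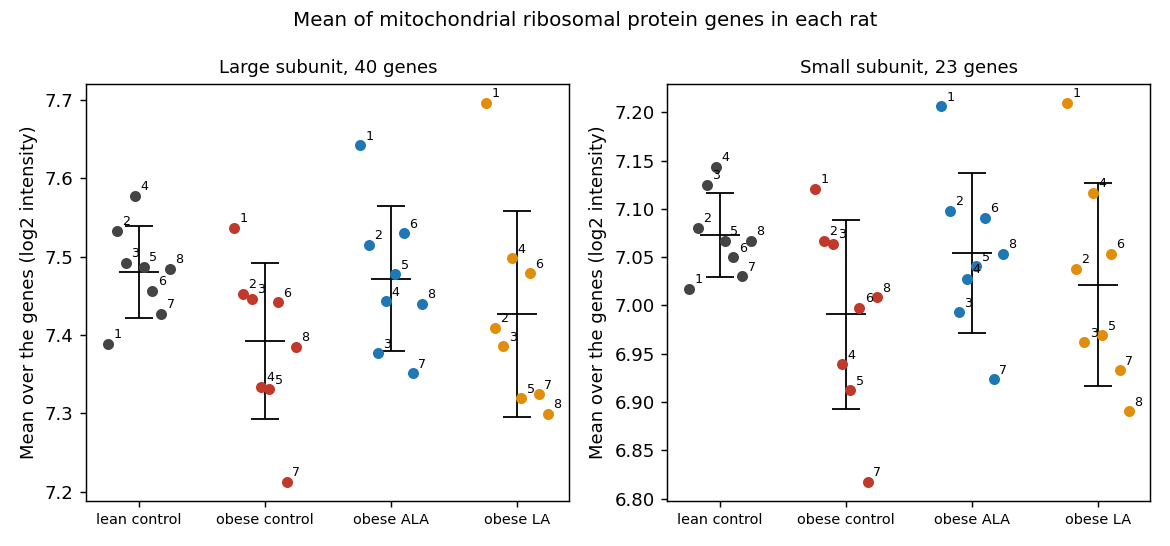
Mean log2 intensity of the 40 large-subunit genes (left) and 23 small-subunit genes (right) in each rat. Points are rats with their number, black bars the group mean and SD (n = 8). In both panels obese control rat 7 is lowest and obese LA rat 1 highest of all 32 rats.

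Gene by gene, lean control had the highest of the 4 group means for 31 of the 63 genes (49.2%, against 29.8% of the 10917 genes tested). Obese control had the lowest for 36 (57.1%, against 25% of genes tested). Obese ALA was highest for 22 genes (34.9%, against 20.4%). The spread between rats was smallest in lean controls for 27 genes (42.9%, against 41.2% of genes tested), so the tighter lean group was shared with the rest of the array.

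Obese controls were compared with lean controls, both fed the control diet without restriction, to see what the obese genotype went with. Intake was not matched between these groups. No mitochondrial ribosomal protein gene passed an adjusted p of 0.05 in limma, while 1.76% of the 10917 genes tested did. Of the 63 genes, 55 had the lower mean in obese controls, 35 of 40 in the large and 20 of 23 in the small subunit, where 49.4% of all genes tested were lower. The median difference (obese control minus lean control) was −0.080 for the large and −0.061 for the small subunit, against 0.002 for all genes tested. Before adjustment 9 genes had a p under 0.05, all lower in obese controls, and 14.8% of all genes tested had one in either direction.

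Among large-subunit genes the largest differences were those of Mrpl47, Mrpl34 and Mrpl40. Mrpl40, which lies in the region lost in human 22q11 deletion syndrome, had a lowest, median and highest value of 8.76, 8.97 and 9.09 in lean controls and of 8.42, 8.75 and 8.87 in obese controls. The 2 groups overlapped, with the obese median below every lean rat. The difference was −0.25 (SE 0.0767), at an adjusted p of 0.094 by limma, the lowest of the 63 genes. Mrpl47, a protein near the polypeptide exit tunnel, ran from 8.42 through a median of 8.62 to 8.74 in lean controls and from 7.57 through 8.43 to 8.68 in obese controls. Obese control rats 7 (7.57) and 4 (7.94) lay below all other rats of that group. The difference was −0.27 (SE 0.110, adjusted p = 0.234 by limma), and −0.16 without obese control rat 7. Mrpl34 differed by −0.25 (SE 0.0983, adjusted p = 0.193 by limma), from a mean of 8.61 ± 0.152 in lean to 8.35 ± 0.202 in obese controls (SD, n = 8).

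The other large-subunit genes with an unadjusted p under 0.05 were Mrpl4 (−0.24), Mrpl51 (−0.17), Mrpl41 (−0.18) and Mrpl54 (−0.14), at adjusted p-values of 0.160 to 0.328 by limma. The highest positive differences were 0.11 for Mrpl28, 0.08 for Mrpl36 and 0.07 for Mrpl23. In the small subunit the largest differences were −0.22 for Mrps35, −0.20 for Mrps9 and −0.19 for Mrps18b, and the highest were 0.03 for Mrps18c, 0.01 for Mrps2 and 0.0078 for Mrps34. Mrps35 ran from 5.51 to 5.95 in lean controls with a median of 5.73, and from 4.86 to 5.91 in obese controls with a median of 5.63. Its lowest values, 4.86 and 5.06, were again those of obese control rats 7 and 4. Every one of the 63 intervals for this difference (95%, from the fit) lay between −0.489 for Mrpl47 and 0.277 for Mrpl50 (a 1.40-fold lower value at the first bound).

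Several marker lists moved in the same comparison. The slow fibre genes were lower in obese controls (5 of 6 tested called, median −2.03) and their list mean ran from 9.44 to 9.95 in lean and from 7.36 to 8.59 in obese controls. Of 8 fibroblast genes 7 had the lower mean (2 called, median −0.509), as did 3 of 5 endothelial genes (2 called, median −0.294). The 3 hepatocyte genes tested had the higher mean in obese controls (none called, median 0.580), where rat 5 stood apart. All 10 macrophage genes (1 called, median 0.269), all 6 adipocyte genes (none called, median 0.280) and all 5 regenerating or denervated fibre genes (none called, median 0.146) had the higher mean in obese controls. The part of fibre type or of other cells in the ribosomal protein values was not tested. Without obese control rats 4 and 7 the medians were −0.059 in the large and −0.045 in the small subunit, of the same sign and smaller. Without obese control rat 5, the rat high in hepatocyte genes, they were −0.072 and −0.038.

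**Figure D2:**
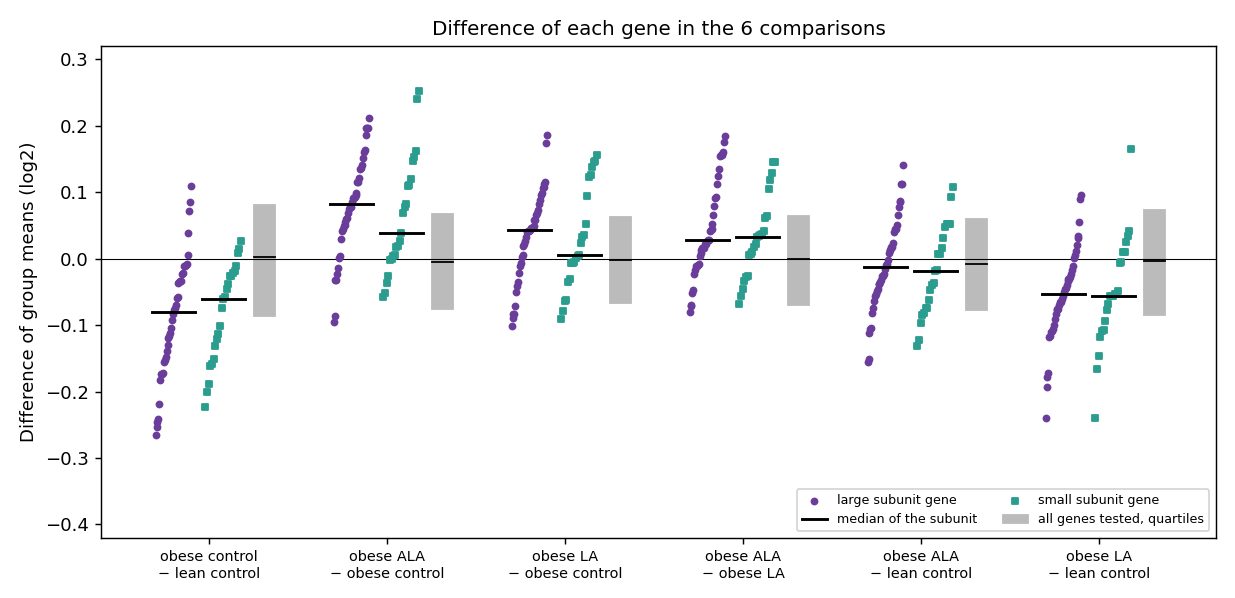
Difference of group means (log2) for each of the 63 genes in the 6 comparisons, with large-subunit genes as purple circles, small-subunit genes as green squares, black bars at each subunit's median and grey boxes for the quartiles of all 10917 genes tested with their median. No gene lies further than 0.27 from 0, and the values for obese control against lean control lie mostly below 0, with 55 of 63 negative.

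The flaxseed oil group was compared with obese controls to see what the ALA diet went with in obese rats. No ribosomal protein gene passed the test, nor did any of the 10917 genes (0%, limma). Before adjustment 5 of the 63 genes had a p under 0.05, all higher in obese ALA. Of all genes tested 8.41% had one in either direction. Of the 63 genes 51 had the higher mean in obese ALA, 34 of 40 large and 17 of 23 small, where 47.8% of all genes tested did. The median difference (obese ALA minus obese control) was 0.082 for the large and 0.038 for the small subunit, against −0.006 for all genes tested. This comparison shares its obese controls with the one above, so genes low in those rats appear in both. Marker lists differed here too, with no gene called. All 5 regenerating or denervated fibre genes (median −0.395) and 7 of 10 macrophage genes (median −0.132) had the lower mean in obese ALA, and all 8 fibroblast genes (median 0.232) and 5 of 6 slow fibre genes (median 0.302) the higher. Their part in the ribosomal protein values was not tested.

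Mrpl51 had the lowest adjusted p of the 63 genes here. Its values ran from 8.96 to 9.44 in obese controls, with a median of 9.30, and from 9.36 to 9.51 in obese ALA, with a median of 9.45. The obese ALA rats were tightly grouped and most obese controls lay below them, with an overlap at the top of the control range. The difference was 0.19 (SE 0.0624, adjusted p = 0.491 by limma). Mrps18b, 1 of 3 mammalian relatives of a single bacterial ribosomal protein, ran from 6.98 to 7.54 in obese controls (median 7.33) and from 7.16 to 7.84 in obese ALA (median 7.52). Its difference was 0.24 (adjusted p = 0.528 by limma). Its paralog Mrps18a differed by −0.06, and the third, Mrps18c, had means of 9.04 ± 0.141 in obese controls and 9.12 ± 0.229 in obese ALA (SD, n = 8).

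Among the features used, Mrps9 had the largest difference, 0.25 (adjusted p = 0.565 by limma). Its mean was 5.17 ± 0.299 in obese controls and 5.42 ± 0.216 in obese ALA (SD, n = 8). The next in the large subunit were Mrpl47 (0.21), Mrpl16 (0.20) and Mrpl3 (0.20), and Mrpl44, whose protein has the fold of an RNase III enzyme, was close behind at 0.20. The lowest were Mrpl23 (−0.09), Mrpl36 (−0.09) and Mrpl45 (−0.03) in the large subunit, and Mrps18a (−0.06), Mrps2 (−0.05) and Mrps26 (−0.04) in the small. Without obese control rats 4 and 7 the medians were 0.029 and 0.026, and Mrpl23, Mrpl36 and Mrpl45 changed sign to 0.042, 0.015 and 0.12. The 63 intervals lay between −0.280 (Mrpl45) and 0.487 (Mrps9), at most a 1.40-fold difference.

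The safflower oil group was compared with the same obese controls. No ribosomal protein gene passed (0% of the 10917 genes did, limma, with 6.25% at an unadjusted p under 0.05), and none of the 63 had an unadjusted p under 0.05. The mean was higher in obese LA for 43 of 63 genes, 29 of 40 large and 14 of 23 small, against 49.2% of all genes tested, with medians of 0.043 and 0.005. These medians were −0.011 and −0.015 without obese control rats 4 and 7, and 0.086 and 0.047 without obese LA rats 7 and 8. Mrpl12, a stalk protein of the large subunit that also binds the mitochondrial RNA polymerase, had the largest difference, 0.19, from 8.30 ± 0.386 in obese controls to 8.49 ± 0.171 in obese LA (SD, n = 8). The median of Mrpl12 was 8.49 in obese controls and 8.44 in obese LA, and obese control rats 7 (7.59) and 4 (7.82) were the lowest of their group. Without those 2 rats its difference was −0.015. Next in the large subunit were Mrpl44 (0.17) and Mrpl22 (0.11), and the lowest there were Mrpl36 (−0.10), Mrpl28 (−0.09) and Mrpl23 (−0.08). In the small subunit the highest were Mrps35 (0.16), Mrps30 (0.15) and Mrps14 (0.15), and the lowest Mrps18a (−0.09), Mrps16 (−0.08) and Mrps34 (−0.06). In the same comparison all 6 slow fibre genes (median 1.04), all 8 fibroblast genes (median 0.456), 9 of 10 macrophage genes and 3 of 4 tendon genes had the higher mean in obese LA, with none called. Their part in the ribosomal protein values was not tested.

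The 2 oils were then set against each other. No ribosomal protein gene passed and none of all genes tested did (0%, limma, with 6.94% at an unadjusted p under 0.05). The mean was higher in obese ALA than in obese LA for 46 of 63 genes, 29 of 40 large and 17 of 23 small, against 49.6% of all genes tested, with medians of 0.027 and 0.032. Mrpl30 was the only member with an unadjusted p under 0.05, with a difference of 0.18 (adjusted p = 0.651 by limma). Its values ran from 7.02 to 7.46 in obese ALA (median 7.30) and from 6.68 to 7.44 in obese LA (median 7.13), so the groups overlapped widely. The second Mrpl30 feature had means of 7.22 in obese ALA, 6.92 in obese LA, 6.93 in obese controls and 7.14 in lean controls. The feature used had means of 7.28, 7.09, 7.12 and 7.14 in the same order. In obese controls the second feature thus lay below lean controls, while the feature used lay close to them. Without obese LA rats 7 and 8, the rats high in tendon and slow fibre genes, the medians turned to −0.004 and −0.013. With all rats, the 10 macrophage genes (median −0.447), 8 fibroblast genes (median −0.293), 6 slow fibre genes (median −0.649) and 4 tendon genes (median −0.699) all had the lower mean in obese ALA, with none called, and their part in the ribosomal protein values was not tested.

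Both oil groups were also set against lean controls, which the comparison of obese with lean controls uses too. For obese ALA 0.889% of all genes tested passed and no ribosomal protein gene did. The mean was below lean for 36 of 63 genes, 23 of 40 large and 13 of 23 small, against 53% of all genes tested, and the medians were −0.012 and −0.019, the second of which turned to 0.005 with a further quantile normalisation. No member had an unadjusted p under 0.05, against 9.32% of genes tested. All 6 slow fibre genes had the lower mean in obese ALA (4 called, median −1.63), as did all 5 endothelial genes (none called) and 6 of 8 fibroblast genes (1 called). For obese LA 1.62% of all genes tested passed and no ribosomal protein gene did. The mean was below lean for 48 of 63 genes, 31 of 40 large and 17 of 23 small, against 51.5% of all genes tested, and the medians were −0.053 and −0.056, or −0.027 and −0.001 without obese LA rats 7 and 8. All 6 slow fibre genes had the lower mean in obese LA (none called, median −0.984), and all 10 macrophage genes (3 called, median 0.509) and all 6 adipocyte genes (1 called, median 0.345) the higher. Of 5 endothelial genes 4 had the lower mean and 1 was called. The part of the markers in either comparison with lean controls was not tested. Mrpl40 (−0.24, adjusted p = 0.113), Mrps16 (−0.24, adjusted p = 0.265) and Mrps25 (−0.17, adjusted p = 0.361, all by limma) had an unadjusted p under 0.05, as did 13.5% of genes tested. Mrpl40 ran from 8.50 to 9.04 in obese LA with a median of 8.71, and without obese LA rat 1, the highest of that group, it passed at −0.29 (adjusted p = 0.0345 by limma).

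Over all 6 comparisons no member had groups without overlap in the feature used. Every interval of these features lay within 0.5 of 0, a 1.41-fold difference. The second Mrpl30 feature was not among them. Standard errors of the differences had a median of 0.0825 over the 63 genes and 0.0875 over all genes tested, so these genes were measured about as precisely as the rest of the array. Whether the large and small subunit differed from each other in any comparison was not tested.

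**Figure D3:**
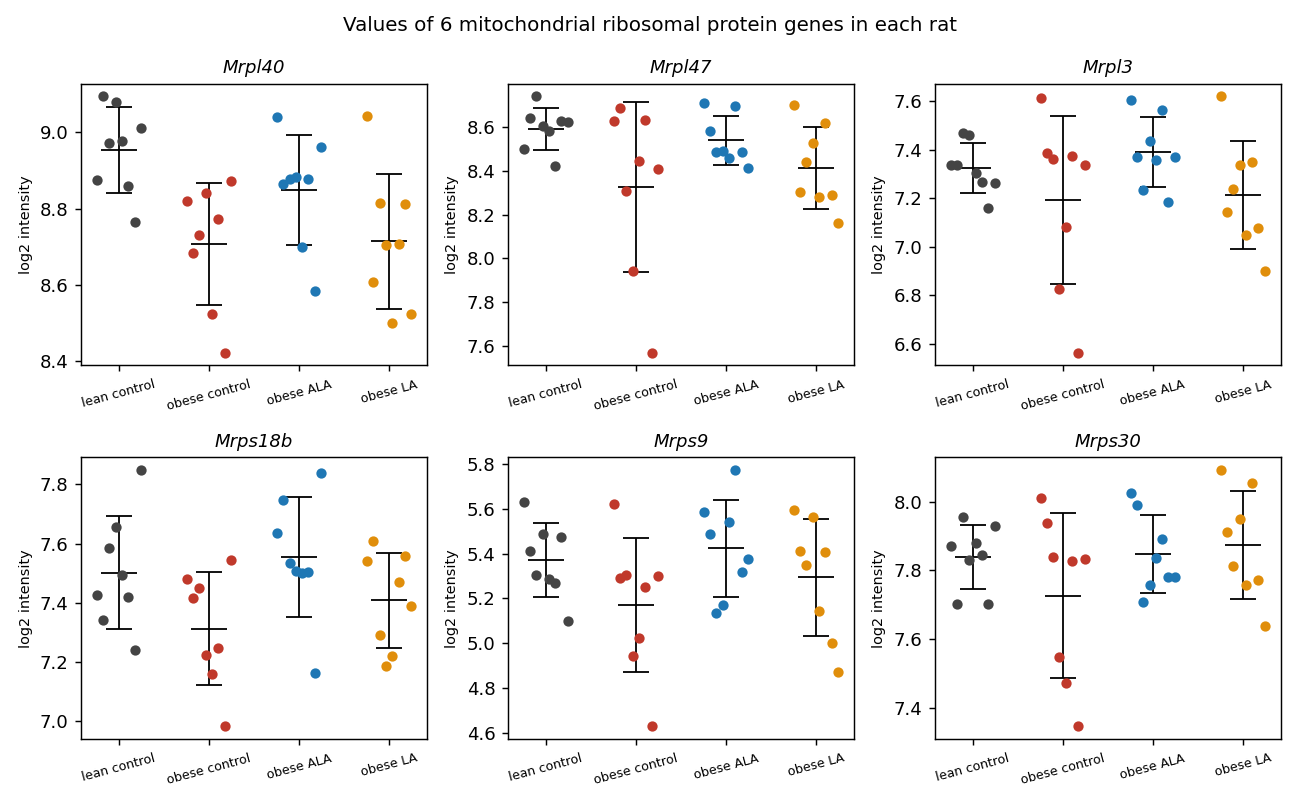
Log2 intensity of Mrpl40, Mrpl47, Mrpl3, Mrps18b, Mrps9 and Mrps30 in each rat, with black bars at the group mean and SD (n = 8). All 4 groups overlap in each of the 6 genes, and Mrpl47 shows the widest group, the obese controls, with values from 7.57 to 8.68.

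Rat by rat, the genes of both subunits moved together. In each group the same rat was lowest and the same rat highest in both subunits. Lean control rat 1 was lowest (7.39 large, 7.02 small) and rat 4 highest (7.58, 7.14). Obese control rat 7 was lowest (7.21, 6.82) and rat 1 highest (7.54, 7.12). Obese ALA rat 7 was lowest (7.35, 6.92) and rat 1 highest (7.64, 7.21). Obese LA rat 8 was lowest (7.30, 6.89) and rat 1 highest (7.70, 7.21).

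The same pattern was seen gene by gene when each rat was set against the median of its own group. In obese control rat 1, 5 of the 63 genes were below the group median, where 48.2% of all genes tested were. In obese ALA rat 1 and obese LA rat 1 it was 3 of 63 each, against 48.7% and 51.9% of genes tested. At the other end, 51 of 63 were below in obese control rat 7 (47% of genes tested), 49 in obese LA rat 8 (50.2%) and 48 in obese control rat 5 (57%). Next were obese LA rat 5 with 47 (49.4%), obese ALA rat 7 with 46 (51.7%) and obese LA rat 7 with 45 (54.2%). The titles number the rats of each group from 1, and nothing in them says that rats of the same number share a litter, batch or day.

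**Figure D4:**
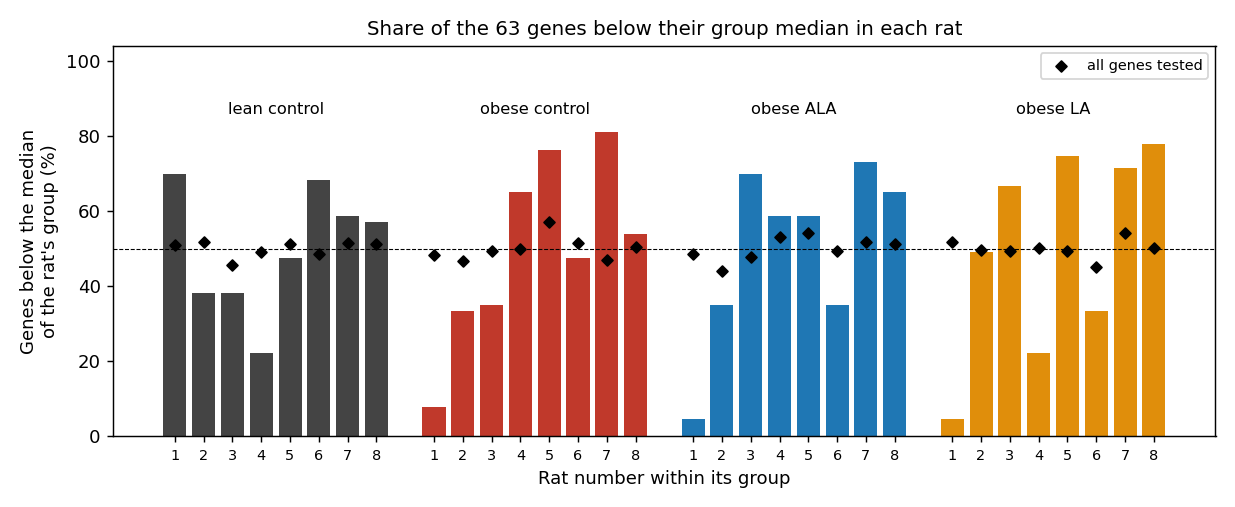
Percent of the 63 genes below the median of the rat's own group (bars), with the percent of all genes tested as black diamonds and a dashed line at 50%. The bars for rat 1 of the 3 obese groups stand for 5, 3 and 3 genes, and the tallest, obese control rat 7, for 51.

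The mean of 73 nuclear respiratory chain and ATP synthase genes followed the same rats. Among obese controls it was lowest in rat 7 (8.41) and highest in rat 1 (8.98), and its extremes were also those of the ribosomal protein genes in obese LA (rats 8 and 1) and in lean controls (rats 1 and 4). In obese ALA its highest rat was also rat 1 and its lowest was rat 3. The rats low in ribosomal protein genes included those that stood apart in other markers, namely obese controls 4, 5 and 7 and obese LA 7 and 8. Lean control rat 2, high in regenerating or denervated fibre genes, was not low: its large-subunit mean of 7.53 ranked 2 and its small-subunit mean of 7.08 ranked 3 from the top of its group. The part of those markers in the rat-by-rat values was not tested. Obese ALA rat 7, also low, had the highest tendon (6.33), fibroblast (7.94) and macrophage (5.67) means of its group. Obese LA rat 5, also low, had a tendon mean of 5.87, below only rats 7 and 8 of its group. Its macrophage mean (5.38) was the lowest of that group. Obese ALA rat 3, ranked 7 of 8 in both subunits, had the lowest macrophage (5.02), fibroblast (7.02) and adipocyte (4.55) means of its group. Obese LA rat 1, highest in both subunits, had a regenerating or denervated fibre mean of 6.08, below only rat 8 of its group.

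**Figure D5:**
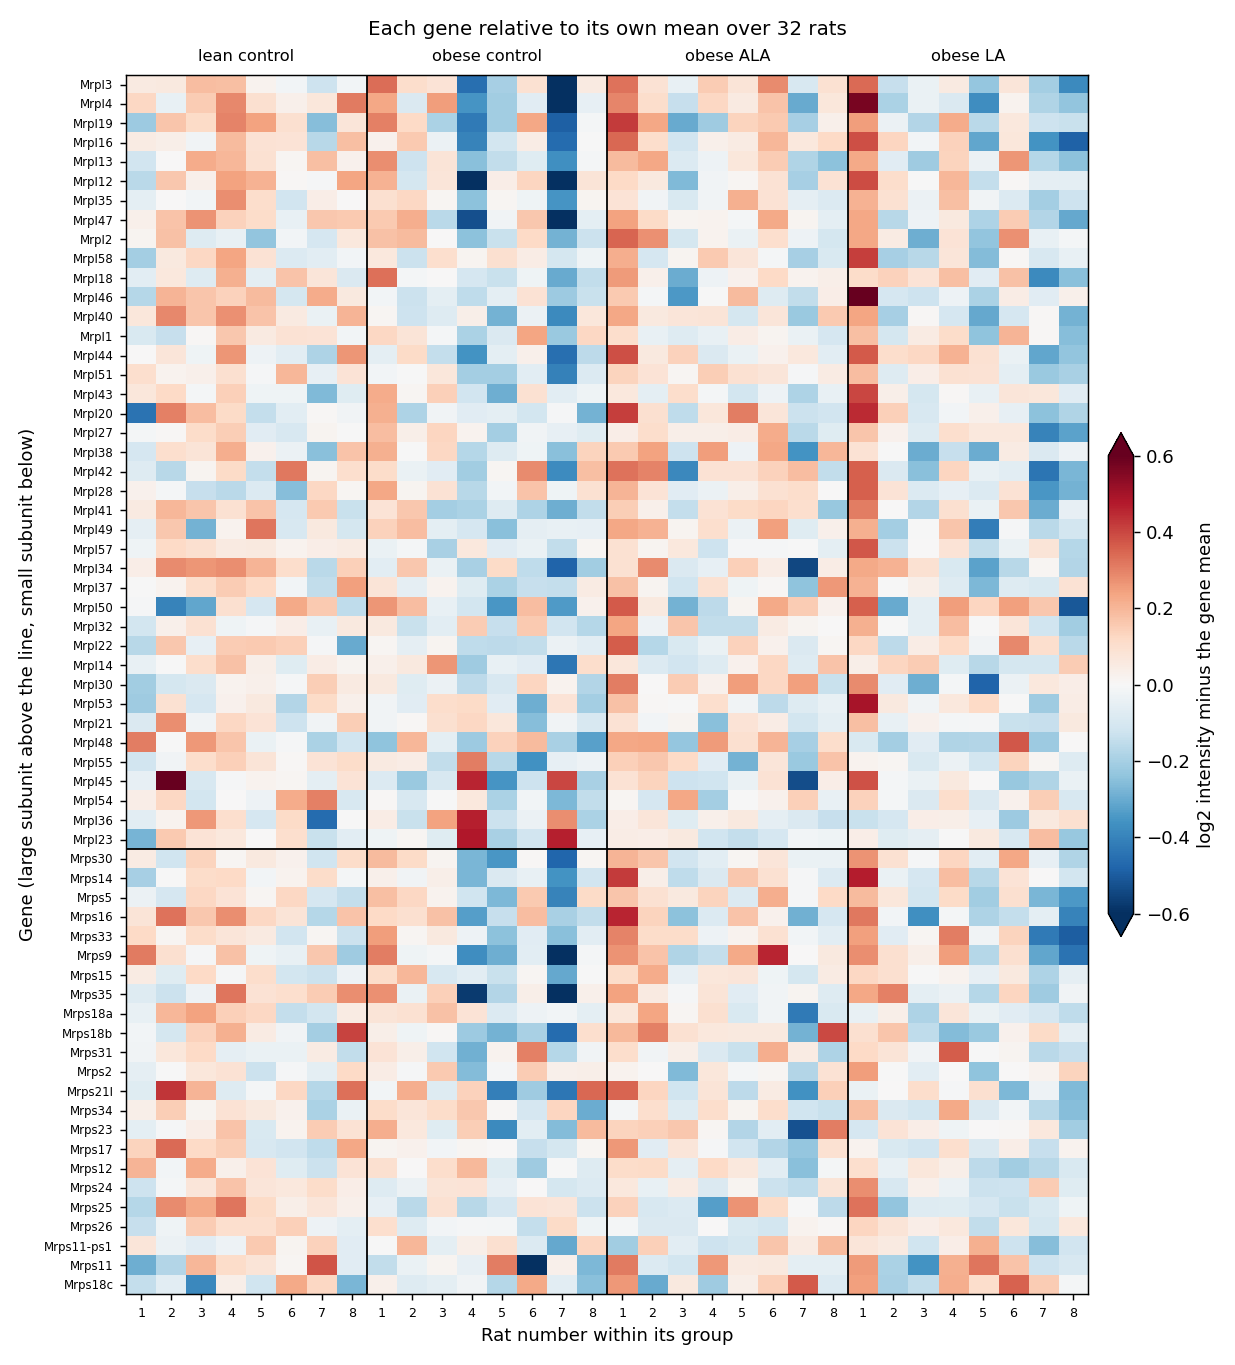
Log2 intensity of each gene minus its own mean over 32 rats (colour, limited to 0.6 on either side), with genes in rows, rats in columns by group, and genes ordered within each subunit by how closely they follow the others. Columns such as obese control 7 (51 of 63 genes below its group median) and obese LA 1 (3 of 63) run in 1 colour through most rows of both subunits.

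How closely each gene followed the others was measured as Pearson's r, over the 32 rats, between its deviation from the group mean and that of the mean of the other genes of its subunit. These values describe arrays that share their scaling, and they carry no test. The RNA quality of each rat was not examined here. In the large subunit the median r was 0.624, with 29 of 40 genes above 0.5. In the small subunit the median was 0.387, with 9 of 23 above 0.5. Among 10854 other genes tested the median r with the mean of all 63 was −0.031 and 6.58% were above 0.5, and among the 73 respiratory chain and ATP synthase genes the median was 0.681 and 72.6% were above 0.5.

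The closest followers in the large subunit were Mrpl3 (0.849), which lies near the peptidyl transferase centre, Mrpl4 (0.840) and Mrpl19 (0.815). In the small subunit they were Mrps30 (0.818), Mrps14 (0.788) and Mrps5 (0.779). Mrps30, named for the small subunit and placed in the large one, was set only against the small-named genes. Its likeness to the large-subunit genes was not measured. Mrpl3 ran from 6.56 to 7.62 in obese controls with a median of 7.35, and from 7.16 to 7.47 in lean controls with a median of 7.32. The least alike were Mrpl23 (−0.153), Mrpl36 (−0.141) and Mrpl54 (0.126) in the large subunit, and Mrps18c (0.0075), Mrps11 (0.088) and Mrps11-ps1 (0.144) in the small.

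Mrpl23, Mrpl36, Mrpl45 and Mrps34 were higher in obese control rats 4 and 7 than in every other obese control. Mrpl23, another protein near the exit tunnel, was 9.05 and 9.03 in rats 4 and 7, and 8.37 to 8.58 in the other 6 obese controls. Mrpl36 was 7.02 and 6.83 in them, and 6.37 to 6.79 in the others. Mrpl45, which anchors the ribosome to the inner membrane, was 8.79 and 8.74 in them, and 7.98 to 8.25 in the others. Mrps34, in the small subunit, was 6.34 and 6.31 in them, and 5.88 to 6.29 in the others, a narrower gap. Of the 63 genes 51 in rat 7 and 41 in rat 4 were below the group median, against 47% and 49.9% of all genes tested. The genes named in this paragraph were chosen after their values were seen. The share of all genes tested that were highest in rats 4 and 7 was not worked out, so they are no sign of a separate set.

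Genes also differed in how much they varied within groups. The largest within-group SDs were 0.255 for Mrpl45, 0.244 for Mrpl50 and 0.234 for Mrpl12 in the large subunit, and 0.240 for Mrps9, 0.229 for Mrps11 and 0.225 for Mrps35 in the small. The smallest were 0.106 for Mrpl57, 0.115 for Mrpl51 and 0.119 for Mrpl21, and 0.087 for Mrps26, 0.103 for Mrps24 and 0.115 for Mrps15. The median was 0.164 for the 63 genes and 0.176 for all genes tested.

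The wider set of genes for mitochondrial translation was described from lists. For obese control against lean control, none of 5 further ribosome components, 11 translation factors, 14 assembly and ribosomal RNA modification factors or 11 mitochondrial aminoacyl-tRNA synthetases passed. Means were lower in obese controls for 4, 9, 13 and 10 of them, with medians of −0.174, −0.110, −0.073 and −0.141. Among them Ptcd3, a small-subunit protein, differed by −0.22, Mtif2, the initiation factor, by −0.24, and Mrm3 and Mrm1, which methylate mitochondrial ribosomal RNA, by −0.26 each. Of the 73 respiratory chain and ATP synthase genes, 65 had the lower mean (median −0.133) and 1 was called, Atp5hl1 at −0.32 (adjusted p = 0.0496 by limma).

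The genes for mitochondrial DNA transcription and upkeep (9 tested, median −0.098) and for mitochondrial mass (11 tested, median −0.088) had no call. Of 8 upstream regulators none passed, with 4 above and 4 below 0 (median 0.012). The ends of this list were Myc, a growth regulator, at 0.50 (adjusted p = 0.282 by limma) and Ppargc1a, a coactivator of mitochondrial biogenesis, at −0.30 (adjusted p = 0.319 by limma). A set of 28 cytosolic ribosomal protein genes lay the other way, with 23 of 28 means higher in obese controls (median 0.067) and none called. The set is only a part of that family. Its symbol filter dropped genes named Rps followed by a digit and those named Rpl followed by only 1 digit. For obese ALA against obese control, none of these lists had a call, with medians of 0.097, 0.142, 0.117, 0.092, 0.114 and −0.051 for the further ribosome components, translation factors, assembly factors, synthetases, respiratory chain and cytosolic ribosomal proteins.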

How the data were processed

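RNA from the red tibialis anterior of 32 rats was hybridised to 1 array each, prepared from 100 ng of total RNA per the labels' protocols. The deposited values are log2 intensities made by the authors with RMA, per the submitters' processing notes; the version is not given in the sources used here. RMA scales arrays to 1 distribution, which takes out any change common to the bulk of the genes, and it compresses differences of dim features. Of 36685 features 14824 had 1 gene symbol, 829 several and 21032 none in the array annotation, which can be old; the brightest feature per gene was kept (14557 genes). One feature with Mrps18c beside other symbols was left out. The dimmest 25% of genes (mean up to 3.35) were left out, which left 10917 genes and all 63 members.

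Differences were fitted with limma 3.58.1 (R 4.3.3) on all 4 groups of 8 (28 residual degrees of freedom), moderated with eBayes and adjusted by Benjamini-Hochberg over the 10917 genes, and called at an adjusted p under 0.05. The fit was tested on simulated data. Array number limits precision; labels name each sample as a rat, and replicate spread is between rats. The members, gene lists and left-out arrays were chosen with earlier results of these data known. Named genes were, per comparison and subunit, members called and the 3 largest differences each way, and per subunit the 3 most and 3 least variable and the 3 most and 3 least like the rest; unadjusted calls and genes apart in single rats were added. Alternatives were no dim filter, the dimmest 50% left out, every feature tested, 2 other scalings, a robust trended prior, array weights, 2 groups only, a replicate block, the doubted arrays left out, each array left out, Mrps30 and Mrps18a moved to the large subunit and, added after seeing the data, Mrps11-ps1 left out. The labels do not say that rat numbers pair rats, so the main fit has no block.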

Additional observations from a re-analysis of the deposited data

Results flagged for a closer look

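In 260 sets of 8 rats (the 63 genes and both subunit means in 4 groups) 14 had 1 rat set apart from the nearest other by a larger part of the group's range than Dixon's critical value allows, and chance alone sets apart about 1 in 20. Obese LA rat 1, the rat with the highest subunit means, stood above the rest of its group in Mrpl4 (9.196, next rat 8.649), Mrpl43 (7.495, 7.167), Mrpl45 (8.718, 8.394), Mrpl46 (7.329, 6.759), Mrpl53 (9.453, 9.077), Mrpl57 (8.494, 8.201) and Mrps25 (6.176, 5.822). Obese ALA rat 7 stood below its group in Mrpl34 (7.915, next rat 8.372) and Mrpl45 (7.804, 8.213), and obese ALA rat 1 above it in Mrpl44 (5.398, 5.149). Mrpl45 was high in lean control rat 2 (9.172, 8.416), which also had a regenerating fibre mean of 7.01, the highest among lean controls. The others were Mrpl48 in obese LA rat 6 (7.2, 6.829), Mrps14 in lean control rat 1 (7.849, 8.031) and Mrps2 in obese control rat 4 (5.526, 5.776).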

How the results depend on the processing

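The count of ribosomal protein genes called was 0 in all 6 comparisons under every alternative run, except for obese LA against lean control, where it was 1 (Mrpl40) with array weights (−0.26, adjusted p = 0.0236 by limma) and ran from 0 to 1 with single arrays left out (1 without obese LA rat 1). A replicate block changed no call (0 members called in each comparison), and by the labels the rats share only a number. Correlations of same-number deviations ran from −0.227 to 0.297, with no comparison in which all 8 pairs passed 0.1. For obese ALA against obese control 5 of 8 pairs did, and 5 of 8 rats of each group correlated best with their own number. That is a hint from the data and not the design. For the other comparisons 0 to 4 of 8 pairs passed 0.1, and 0 to 3 of 8 rats correlated best with their own number. Of 864 values of named genes under alternatives 25 changed sign, as did 16 of 2304 with 1 array left out. For obese control minus lean control these were Mrpl36 (−0.0083 with array weights, −0.017 without obese controls 4 and 7), Mrpl23 (−0.065 without them), Mrps2 (−0.00377 with arrays centred on their medians) and Mrps34 (−0.011 centred, −0.029 weighted, −0.033 without obese controls 4 and 7). For obese ALA minus obese control they were, without those controls, Mrpl23 (0.042), Mrpl36 (0.015), Mrpl45 (0.12, and 0.085 weighted) and Mrps35 (−0.018). For obese LA minus obese control they were Mrpl28 (0.00327 without obese LA 7 and 8), Mrpl23 (0.053), Mrpl12 (−0.015) and Mrps35 (−0.025) without obese controls 4 and 7, and Mrps34 (0.034 without all 4 arrays). With single arrays left out, Mrps18c ranged from −0.018 to 0.070, Mrps2 from −0.0048 to 0.054 and Mrps34 from −0.022 to 0.054 (obese control minus lean control), Mrpl45 from −0.079 to 0.036 (obese ALA minus obese control) and Mrps31 from −0.0058 to 0.069 (obese LA minus lean control). The subunit medians for obese control minus lean control stayed negative under all alternatives run, from −0.0998 to −0.057 (large) and −0.091 to −0.038 (small) with single arrays left out. For the other comparisons these ranges were 0.048 to 0.107 and 0.015 to 0.081 (obese ALA minus obese control), 0.0059 to 0.066 and −0.0030 to 0.035 (obese LA minus obese control), 0.0046 to 0.066 and 0.011 to 0.055 (obese ALA minus obese LA), −0.037 to 0.012 and −0.043 to −0.0016 (obese ALA minus lean control) and −0.092 to −0.025 and −0.089 to −0.025 (obese LA minus lean control). The cause of these changes was not tested.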
